A study of Mus musculus with 26 samples.

Results

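The genes of sarcoplasmic reticulum calcium handling were described in 2 RNA-seq tables, one of regenerating mouse muscle and one of cultured C2C12 myoblasts. The set held 10 genes: Ryr1, Ryr3, Atp2a1, Atp2a2, Sln, Casq1, Casq2, Cacna1s, Pvalb and Trdn. Every one of the 10 was listed in both tables, among 53465 genes in the muscle table and 55487 in the cell table. The values were FPKM, fragments scaled to transcript length and library depth, so that levels of different genes can be set side by side per unit of length.

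Contraction of a skeletal fibre starts at the triad, where a tubule of the surface membrane lies against the sarcoplasmic reticulum. Cacna1s, the pore subunit of the voltage sensor in the tubule, opens the release channel Ryr1 in the reticulum, and the calcium that leaves is pumped back by SERCA ATPases, of which Atp2a1 encodes the fast-fibre form and Atp2a2 the slow-fibre and housekeeping form. Inside the reticulum calcium is held by the calsequestrins Casq1 and Casq2, which triadin (Trdn) anchors to the channel, while sarcolipin (Sln) slows the pump and parvalbumin (Pvalb) buffers calcium in the cytosol of fast fibres. Ryr3 is a second release channel, known for its expression in developing muscle.

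The muscle groups were tibialis anterior from 6-week-old male C57BL/6J mice, collected on days 0, 1, 3, 5 and 10 of an injury by cardiotoxin (CTX), a snake venom component that destroys fibres, which then regenerate from stem cells. Each day had 2 libraries, and day 0 is the state before injury. The study's methods name saline as the control injection, and the labels do not say whether the day 0 muscles received it. C2C12 is an established mouse myoblast line that fuses into myotubes when serum is lowered. The control cells (CTRL) and the cells labelled Cas9M3 were each sampled on day 0 in growth medium and on day 3 in differentiation medium, with 2 libraries per group. Cas9M3 cells carried a lentiviral dCas9-KRAB repressor, driven by a ubiquitin promoter, with guides to the promoter of Mettl3, the catalytic subunit of the m6A RNA methyltransferase, and were a puromycin-selected stable population. The design text of the series calls these cells a knockout, whereas the construct described is a knockdown, and the latter word is used here. Nothing in the labels says that the 2 libraries of a group came from separate animals or cultures, so the p-values measure the spread between these libraries only.

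The implied depth was 14170000 to 18820000 reads on genes per muscle library and 14230000 to 29560000 per cell library, and 1 read on a gene of 1 kb was worth at most 0.0817 and 0.104 FPKM. Mettl3 stood at 4.68 to 5.65 FPKM in the 4 CTRL libraries and at 0.08 to 0.33 FPKM in the 4 Cas9M3 libraries, so the labels held. Skeletal muscle identity was clear from the 5 fast-fibre markers Ckm, Acta1, Myh4, Tnnt3 and Mylpf, whose summed level was 13510 to 61890 FPKM in the muscle libraries. Xist, which male tissue should lack, was at 5.77 FPKM or more in both day 0, both day 10 and 1 day 3 library (replicate 2), and at 0.152 FPKM or less in the other 5 muscle libraries. Comparisons among days 0, 3 and 10 and among days 1, 3 and 5 are therefore also given within the libraries of one Xist class. Each class holds a single day 3 library, so only log2 fold changes are given for these. For days 1 and 5 against day 0 no class holds both groups, so Xist class and day cannot be told apart there. A term for Xist class rests only on the difference between the day 3 libraries, as no other day holds both classes. In the cell table the replicate 1 libraries in growth medium stood apart from replicate 2 in both lines, with Myog, the differentiation factor myogenin, at 11.1 and 12.7 FPKM against 2.70 and 0.18 FPKM. Results that rest on day 0 cells are given with and without these libraries.

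The upstream sequences of 3 genes are shown because their levels changed differently after injury: Casq1 and Ryr1 had lower levels on day 3, and Casq2 a higher one. RefSeq promoter entries (GRCm38.p6) matched 6 of the 10 genes, namely Ryr1, Atp2a1, Casq1, Casq2, Cacna1s and Pvalb, the last with 2 entries. The 250 bases before the RefSeq start site are printed in the direction of transcription, from chr1:172219896-172220145 (minus strand) for Casq1, chr3:102086165-102086414 (plus strand) for Casq2 and chr7:29125152-29125401 (minus strand) for Ryr1. Capitals mark the E-box pattern CANNTG, the motif class bound by MyoD and myogenin.
Casq1: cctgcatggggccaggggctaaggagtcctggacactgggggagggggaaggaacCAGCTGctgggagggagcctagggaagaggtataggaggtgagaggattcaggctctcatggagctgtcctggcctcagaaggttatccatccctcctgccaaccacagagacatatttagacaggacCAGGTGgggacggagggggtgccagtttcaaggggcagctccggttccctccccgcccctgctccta
Casq2: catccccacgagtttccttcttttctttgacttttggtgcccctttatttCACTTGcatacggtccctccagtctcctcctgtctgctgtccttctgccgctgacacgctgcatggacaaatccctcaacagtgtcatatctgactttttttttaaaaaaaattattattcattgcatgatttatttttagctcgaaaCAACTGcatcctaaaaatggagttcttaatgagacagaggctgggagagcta
Ryr1: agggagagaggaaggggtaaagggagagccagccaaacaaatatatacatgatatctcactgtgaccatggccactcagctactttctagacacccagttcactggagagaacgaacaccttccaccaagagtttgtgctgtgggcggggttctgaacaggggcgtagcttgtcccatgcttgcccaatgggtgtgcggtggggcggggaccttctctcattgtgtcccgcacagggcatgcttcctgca
The letters CANNTG, which read the same on both strands, occurred 2 times before Casq1, 2 times before Casq2 and 2 times before Cacna1s. They occurred 1 time before Atp2a1, 0 times before Ryr1, and 0 and 1 times in the 2 Pvalb windows. Of all 32841 windows of this length, 66.23% held at least 1 CANNTG. The narrower E-box CAGCTG, a subset of CANNTG, was found 1 time each before Casq1, Atp2a1 and Cacna1s and in 13% of all windows. The letters CTA and TAG with 4 bases between them, a narrow form of the MEF2 site, were in 3.203% of all windows. None of the 7 windows of these genes held them. Forms of the site with other end bases were not searched, so this does not show that the windows lack a MEF2 site.

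Day 3 after CTX was the point at which the 10 genes differed most from day 0. Against day 0, Ryr1, Cacna1s, Trdn, Atp2a1, Casq1 and Pvalb fell and Atp2a2 and Casq2 rose, each in limma with an adjusted p of at most 0.05 over all 16753 genes tested. Of the 9 genes tested, 6 fell, against 24.3% of all tested genes, and 2 rose, against 24.5%. Sln was not called, and Ryr3 was below the filter on low values. The median log2 fold change of the 9 was -1.52 where that of all tested genes was 0.01. In bulk muscle, fewer fibres and less RNA per fibre cannot be told apart. The summed fast-fibre markers were 46670 to 49940 FPKM on day 0 and 13510 to 15440 FPKM on day 3, while the 5 leukocyte markers went from 5.70 to 9.11 FPKM to 145 to 158 FPKM, with all 5 above 3 FPKM on day 3. The 4 fibroblast markers went from 37.8 to 91.4 FPKM to 398 to 433 FPKM, mostly Col1a1, and the 4 smooth muscle markers from 53.8 to 63.5 FPKM to 326 to 431 FPKM, nearly all of the difference in Acta2, while Myh11, the defining smooth muscle myosin, was lower on day 3 at 1.77 and 1.54 FPKM than on day 0 at 4.60 and 4.56 FPKM. The part of these cell types in the result was not tested.

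**Figure D1:**
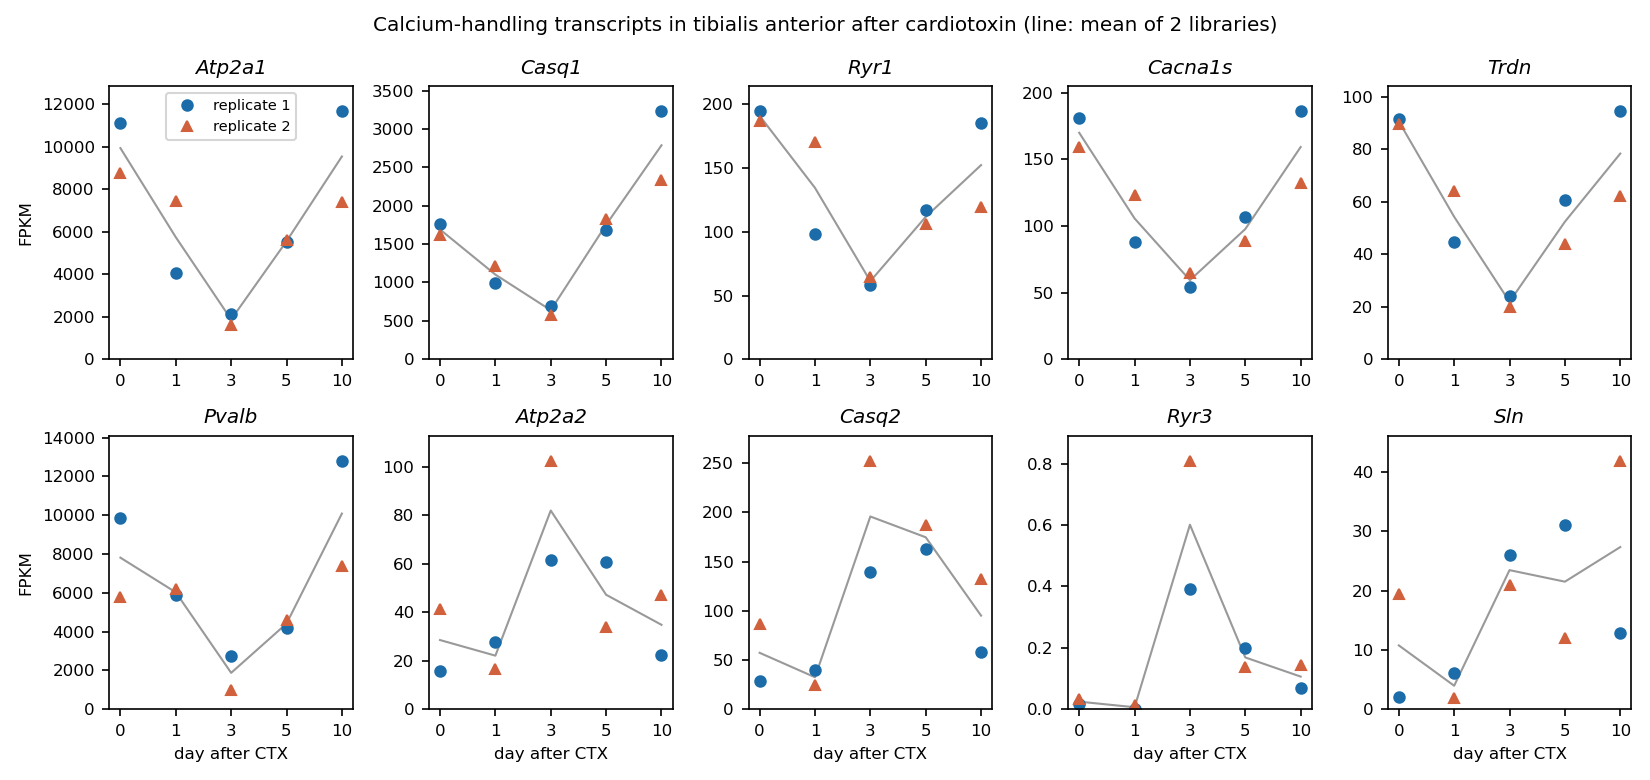
FPKM of each of the 10 genes by day after CTX, with both libraries of a day as separate points and a line through their means, on axes that start at 0. The first 6 panels dip on day 3, where Atp2a1 stood at 2123 and 1621 FPKM, whereas Atp2a2, Casq2 and Ryr3 peak there.

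The voltage sensor and the release channel fell together. Cacna1s (chr1:136052750-136119822, plus strand) was at 181 and 159 FPKM on day 0, against 54.3 and 64.4 FPKM on day 3, and Ryr1 (chr7:29003344-29125179, minus strand) at 195 and 187 FPKM and then 57.9 and 64.6 FPKM. On neither gene did the 2 days overlap. The log2 fold change was -1.52 for Cacna1s (SE 0.23, adjusted p = 0.00165) and -1.64 for Ryr1 (SE 0.28, adjusted p = 0.00282), with limma. Triadin fell further: Trdn (chr10:33080554-33476709, plus strand) went from 91.5 and 89.8 FPKM to 24.1 and 19.7 FPKM, a log2 fold change of -2.05 (SE 0.27, adjusted p = 0.000914). Within the 3 libraries that carried Xist the changes were -1.39 for Cacna1s, -1.56 for Ryr1 and -2.19 for Trdn. Day 3 then held a single library, so the calls of this fit are not given.

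Ryr3 (chr2:112631355-113217096, minus strand) moved the other way at a level far below that of Ryr1. Its FPKM was 0.017 and 0.032 on day 0, from 4 and 8 implied reads, and 0.392 and 0.810 on day 3, from 147 and 311 implied reads. A single day 1 library had none of its reads and the other 3. The gene was not in the main test, and without the filter its log2 fold change on day 3 was 2.43 (SE 0.37, adjusted p = 0.00387, limma), on a scale with 0.1 FPKM added that understates the change of so low a gene. By day 10 it was at 0.069 and 0.143 FPKM, both above the day 0 libraries.

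The calcium pumps parted in the same way. Atp2a1 (chr7:126445858-126463108, minus strand), the fast-fibre SERCA, was the highest of the 10 genes in 7 of the 10 libraries, with 11121 and 8738 FPKM on day 0 and 2123 and 1621 FPKM on day 3. Its log2 fold change was -2.41 (SE 0.38, adjusted p = 0.00189). Atp2a2 (chr5:122453513-122502225, minus strand) was at 15.9 and 41.2 FPKM on day 0, against 61.4 and 103 FPKM on day 3, so that every day 3 library was above both day 0 libraries. It rose by 1.63 on the log2 scale (SE 0.57, adjusted p = 0.0466, limma). That call was close to the threshold: without day 0 replicate 1 the change was 0.95 (adjusted p = 0.263) and without day 3 replicate 2 it was 1.26 (adjusted p = 0.223), and it was also lost without day 3 replicate 1 (2.00, adjusted p = 0.0735) and without either day 1 or either day 5 library (adjusted p = 0.0551 to 0.0604).

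Sarcolipin, which inhibits both pumps, was variable within days. Sln (chr9:53850164-53854560, plus strand) had 2.01 and 19.5 FPKM on day 0 and 6.09 and 1.79 FPKM a day later. The day 3 libraries held 26.0 and 20.9 FPKM, those of day 5 31.0 and 12 FPKM and those of day 10 12.8 and 41.9 FPKM. Both day 3 libraries were above both day 0 libraries, but the spread within day 0 was wide. The log2 fold change on day 3 was 1.87 (SE 1.09, adjusted p = 0.195, limma). Leaving out 1 day 0 library gave 0.26 without replicate 1 and 3.47 without replicate 2.

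Among the lumenal calcium stores, Casq1 (chr1:172209894-172219868, minus strand) was at 1766 and 1614 FPKM on day 0, against 700 and 578 FPKM on day 3. Its log2 fold change was -1.41 (SE 0.23, adjusted p = 0.00205), but the direction flipped to 0.12 (adjusted p = 0.649) after quantile normalization, which lowered the median of all genes by 0.12. Casq2 (chr3:102086415-102146514, plus strand) was at 28.3 and 86.3 FPKM on day 0, against 139 and 253 FPKM on day 3, with no overlap. It rose by 1.92 (SE 0.59, adjusted p = 0.0295, limma), and lost the call without day 0 replicate 1 (1.12, adjusted p = 0.171), without day 3 replicate 2 (1.49, adjusted p = 0.166) or without either day 5 library (adjusted p = 0.0508).

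Parvalbumin, the cytosolic buffer, fell with the fast-fibre genes. Pvalb (chr15:78191114-78206400, minus strand) had 9856 and 5762 FPKM on day 0 and 2735 and 1003 FPKM on day 3. The log2 fold change was -2.19 (SE 0.51, adjusted p = 0.01). Without day 0 replicate 1 it was -1.80 (adjusted p = 0.0659) and without day 3 replicate 2 it was -1.46 (adjusted p = 0.0623). After quantile normalization Atp2a1 (-0.42, adjusted p = 0.221) and Pvalb (-0.32, adjusted p = 0.516) kept their sign and were no longer called.

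The way into and out of day 3 was followed in the other comparisons. On day 1 none of the 9 tested genes was called against day 0, where 3.53% of all genes were higher and 2.47% lower. The lowest adjusted p-values by limma were those of Cacna1s (-0.70, 0.107), Trdn (-0.76, 0.122) and Casq1 (-0.62, 0.132). Their libraries did not overlap those of day 0, a description only, as the share of all genes without overlap is not given here. Between day 1 and day 3 the same 8 genes were called in the same directions as against day 0, 6 lower and 2 higher, beside 16.6% and 14.5% of all genes. The largest of these changes was that of Casq2, from 39.8 and 25 FPKM to 139 and 253 FPKM (2.57, SE 0.59, adjusted p = 0.0162, limma), and the smallest that of Casq1 (-0.79, adjusted p = 0.0345). Quantile normalization turned the sign of Casq1 (0.18) and left Atp2a1 at 0.00 where it had been -1.56. The count of 8 was fragile: it was 0 without day 1 replicate 2 or day 3 replicate 2, 3 without day 3 replicate 1, 5 without day 1 replicate 1, and 4 without either day 5 library. Among the 3 libraries low in Xist, with a single day 3 library, the log2 fold changes were -1.14 for Trdn and 2.14 for Casq2.

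The first genes to pass the test on the way back were seen on day 5. From day 3 to day 5, Atp2a1, Casq1 and Trdn rose, 3 of 9 beside 7.23% of all genes, and none fell beside 5.46%. Casq1 went from 700 and 578 to 1683 and 1821 FPKM (log2 fold change 1.46, SE 0.23, adjusted p = 0.00976, limma). Atp2a1 reached 5497 and 5602 FPKM (1.58, adjusted p = 0.036) and Trdn 60.8 and 44.0 FPKM (1.24, adjusted p = 0.026). No gene was called without day 3 replicate 2, day 5 replicate 1 or day 5 replicate 2, and Casq1 alone remained without day 3 replicate 1. After quantile normalization Atp2a1 was at 0.20 (adjusted p = 0.639) and Casq1 at 0.54 (adjusted p = 0.094), and Trdn alone stayed called. Without the filter Atp2a1 had an adjusted p of 0.277. Between the 3 libraries low in Xist, with a single day 3 library, Casq1 differed by 1.32.

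Against day 0, the day 5 muscles differed by test in 1 of the 9 genes, Cacna1s, beside 12.5% of all genes lower and 12.9% higher. It was at 107 and 88.7 FPKM on day 5 (log2 fold change -0.80, SE 0.23, adjusted p = 0.0406, limma), and the call was lost without either library of day 0, day 3 or day 5 (adjusted p = 0.0635 to 0.207). It was also lost after quantile normalization (-0.40, adjusted p = 0.257). With a term for Xist class the change was -0.55 (adjusted p = 0.488). That term rests only on the difference between the day 3 libraries, so it cannot separate Xist class from day here. Ryr1 (117 and 106 FPKM) and Trdn were likewise below both day 0 libraries, with log2 fold changes of -0.77 and -0.81 and adjusted p-values of 0.0822 and 0.0614. Casq1 on day 5 was within the range of day 0 to above it, whereas Casq2, at 163 and 187 FPKM, was still above both day 0 libraries (1.82, SE 0.59, adjusted p = 0.0582).

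By day 10, 6 genes had risen from day 3 and none had fallen, where 19.1% of all genes were higher and 18.8% lower. The 6 were Atp2a1, Cacna1s, Casq1, Pvalb, Ryr1 and Trdn, with log2 fold changes from 1.28 for Ryr1 (adjusted p = 0.0108) to 2.55 for Pvalb (adjusted p = 0.00741). Pvalb reached 12813 and 7355 FPKM and Casq1 3236 and 2338 FPKM. Leaving out one library at a time left 4 to 6 of these calls, the 4 being without day 10 replicate 1, when Ryr1 (0.97) and Pvalb (2.15) were lost. After quantile normalization Atp2a1 was at 0.47 (adjusted p = 0.188) and Pvalb at 0.98 (adjusted p = 0.0792), neither called, and Casq1 at 0.67, still called. Both lost calls were also lost without the filter and in a fit of the 2 days alone (adjusted p = 0.052 to 0.0822). Among the libraries that carried Xist, with a single day 3 library, the log2 fold changes of the 6 were 1.20 to 3.27. Compared with day 0, none of the 9 genes was called on day 10 (0.00597% of all genes were), and at an unadjusted p under 0.05 there was 1, Casq1 (0.70, adjusted p = 0.418), whose 2 day 10 libraries were both above the 2 of day 0.

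The balance between paired isoforms was tested across the 5 days on the log2 ratio of the 2 genes, with an exact permutation test over all ways to assign the libraries and adjustment over 6 such tests. Casq2 made up 1.57% and 5.07% of the summed calsequestrin FPKM on day 0 and 16.6% and 30.4% on day 3. On day 5 it still made up 8.81% and 9.32%, above both day 0 libraries, and on day 10 1.77% and 5.34%. The Casq1 to Casq2 ratio differed across days with p = 0.0476 (exact permutation test, adjusted p = 0.0873). Without day 5 replicate 1 it was 0.101 and without day 3 replicate 2 it was 0.193. Atp2a2 contributed 0.143% and 0.469% of the summed SERCA FPKM on day 0, then 2.81% and 5.95% by day 3 and 1.09% and 0.602% by day 5 (exact permutation p = 0.0582, adjusted p = 0.0873). Ryr3 contributed at most 0.0169% of the ryanodine receptor FPKM on day 0 and 0.673% and 1.24% on day 3 (exact permutation p = 0.00847, adjusted p = 0.0508). In each pair the share of the minor isoform was highest in the 2 day 3 libraries and Ryr1, Atp2a1 and Casq1 stayed the more abundant in all 10 libraries. None of the tests passed 0.05 after adjustment.

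**Figure D2:**
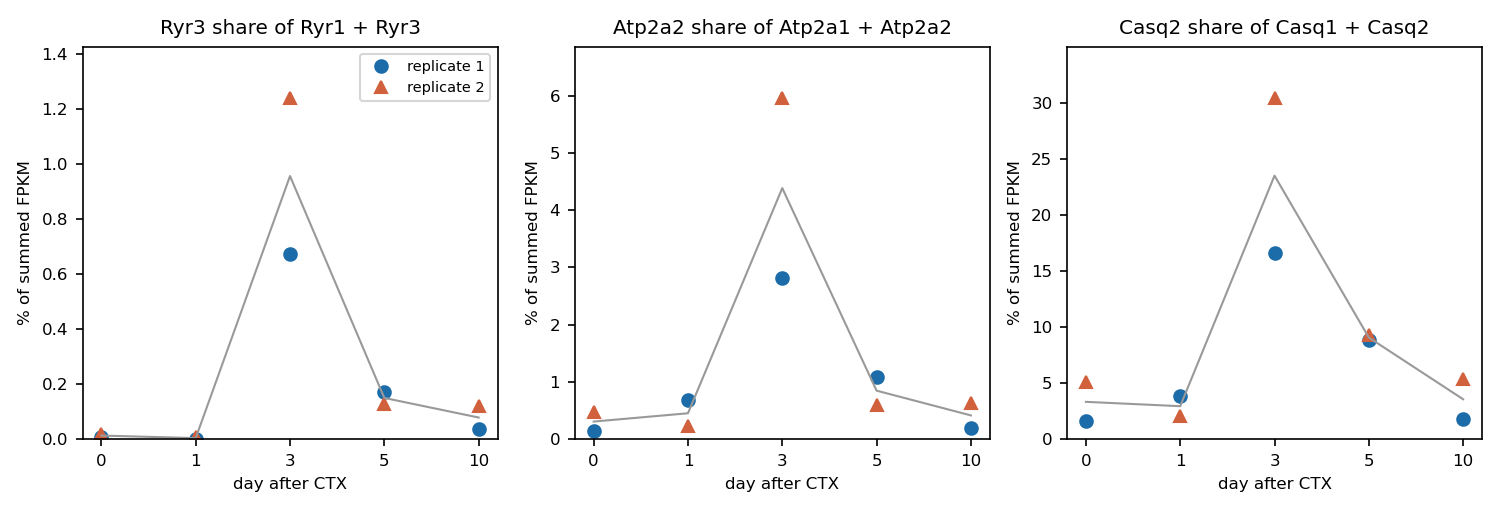
Share of Ryr3, Atp2a2 and Casq2 in the summed FPKM of their isoform pair, in percent, by day after CTX, with both libraries as points and a line through their means. All 3 shares are highest in the 2 day 3 libraries, where Casq2 reaches 16.6% and 30.4%.

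Set against the fast-fibre markers of the same library, the 10 genes had unequal differences between day 0 and day 3. Each gene was expressed as its log2 level, with 0.1 FPKM added, minus the mean log2 level of the 5 markers. On this scale Ryr1 was at -5.48 on average on day 0, against -5.26 on day 3, Cacna1s at -5.66 and -5.31, Trdn at -6.56 and -6.74, and Casq1 at -2.34 and -1.89. Atp2a1 moved from 0.20 to -0.34. These 5, and Pvalb, differed by less than 0.6 between the 2 days. By contrast Atp2a2 moved from -8.38 to -4.89, Casq2 from -7.43 to -3.65, and Sln from -10.4 to -6.65. In Sln and Casq2 the day 3 libraries were above all others on this scale, and the same held for Atp2a2 and Ryr3. These values are a description with no test, because both the genes and the markers were measured in the same libraries.

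**Figure D3:**
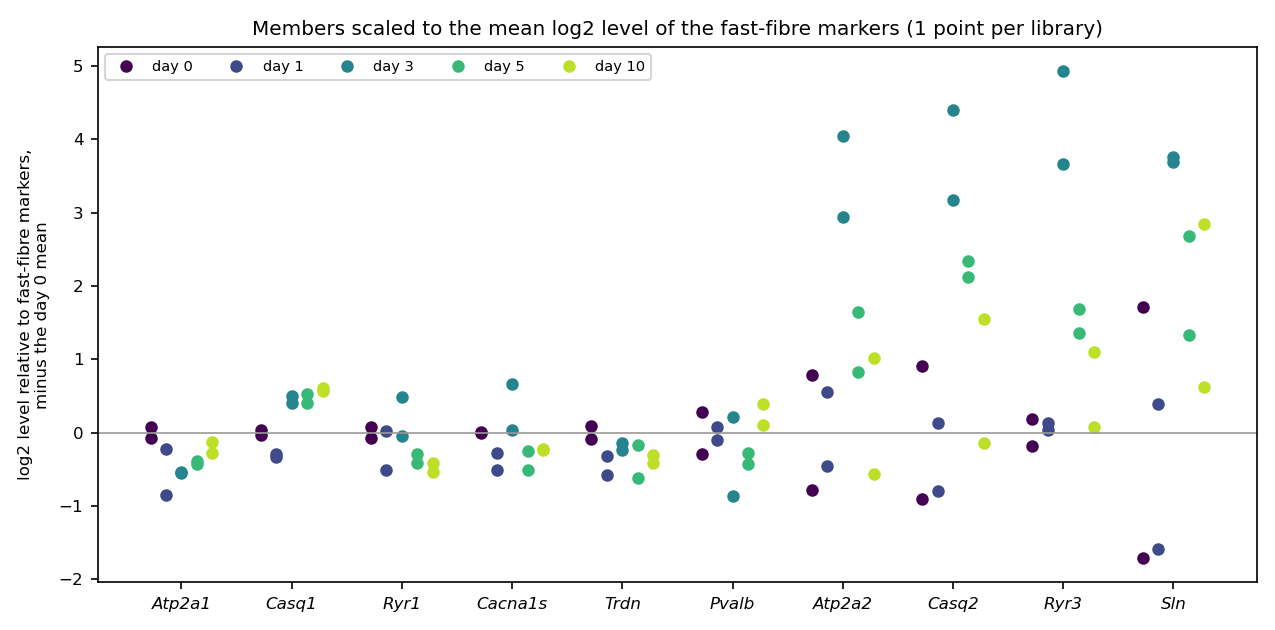
Log2 level of each gene relative to the mean log2 level of 5 fast-fibre markers (Ckm, Acta1, Myh4, Tnnt3 and Mylpf), after subtraction of the gene's own day 0 mean, with 1 point per library and colour by day. The day 3 points of Atp2a2, Casq2, Ryr3 and Sln lie about 3 to 5 above 0, while those of Atp2a1, Casq1, Ryr1, Cacna1s and Trdn lie within 0.7 of it.

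On days 0, 1 and 10, Atp2a2, Casq2 and Sln were each higher in the library with more of the slow-fibre transcripts. On day 3 this held for Atp2a2 and Casq2 but not for Sln, and on day 5 for Atp2a2 and Sln but not for Casq2. On day 0 the second library had more of each than the first, with Casq2 at 86.3 against 28.3 FPKM and Sln at 19.5 against 2.01 FPKM, and the slow troponin Tnnt1 was at 96.3 against 19.3 FPKM. The same held on day 10, where Casq2 was at 132 against 58.2 FPKM and Tnnt1 at 132 against 31.1 FPKM. The summed 6 slow-fibre markers ranged from 147 to 429 FPKM on day 0. On day 1 they were at 160 FPKM in the first library and 41.6 FPKM in the second. They ranged from 536 to 656 FPKM on day 3, from 156 to 219 on day 5 and from 137 to 435 on day 10. Their part in the results for these genes was not tested. On day 3 and day 5 the list was carried by Tnni1, Tnnt1 and Tnnc1, whereas the slow myosin light chain Myl3, at 64.4 and 176 FPKM on day 0, stood at 6.94 and 1.28 FPKM by day 3 and reached 1.35 and 1.44 FPKM by day 5. Newly formed fibres, read from Myh3, Myh8, Myog and Mymk, summed to 18.9 to 41.8 FPKM on day 0 and to 855 to 1344 FPKM on day 3, with all 4 above their day 0 values. Cardiac muscle, the other tissue rich in Casq2, Atp2a2 and Sln, was near absent by its markers Myh6, Nppa, Tnni3 and Myl7, which summed to 0.75 to 1.70 FPKM over all days, with Myl7 at 0 in 7 libraries.

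The transcripts most like each gene over the 10 muscle libraries were found by Pearson's r on log2 levels, among genes with a mean of at least 1 FPKM, as a description in which all points share library and depth. Casq2 was most like Plekhh1 (r = 0.98), the slow troponin Tnni1 (0.97) and Gipc1 (0.97). Sln was closest to Myom3 (0.94), the M-band protein of slow and intermediate fibres. Trdn resembled Phtf2 (0.99) and Kif13a (0.99), Cacna1s Trappc9 (0.99), Pvalb the predicted gene Gm44646 (0.98), and Ryr3 Rogdi (0.98). For 4 genes a transcript from the opposite strand, with exons that overlap theirs, was among the 3 closest. These were Gm17224 for Casq1 (r > 0.99), Rabep2 for Atp2a1, Gm44408 for Ryr1 and Gm43361 for Atp2a2. Whether reads were counted by strand is not given in the sources used here, so reads of these overlapping pairs cannot be told apart. Exons of Ryr3 overlap those of Aven and exons of Cacna1s those of Gm37759 in the same way, and Casq2, Trdn, Sln and Pvalb had no such overlap.

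The other parts of the calcium pathway were read from 4 lists of 40 genes in all. In the list of 17 triad and junction genes, 11 fell and 1 rose on day 3 against day 0, beside 24.3% and 24.5% of all genes, with a median log2 fold change of -0.99 where all genes had 0.01. S100a1, a calcium-binding regulator of Ryr1, fell from 162 and 177 to 44.0 and 35.2 FPKM (-2.10, adjusted p = 0.000329), and Tmem38a, the reticulum counter-ion channel, from 689 and 597 to 209 and 173 FPKM (-1.75, adjusted p = 0.000652). The gene that rose was Fkbp1b, a stabilizer of ryanodine receptors, from 0.16 and 0.51 to 3.52 and 2.57 FPKM (2.97, adjusted p = 0.00143). From day 3 to day 10, 11 of the 17 rose, beside 19.1% of all genes, S100a1 among them (2.06), and Fkbp1b fell (-2.06). On day 5 Sypl2, a triad membrane protein, was already at 195 and 237 FPKM after 56.0 and 47.5 FPKM on day 3 (2.06, adjusted p = 0.00512).

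The 8 pump regulators and lumenal proteins gave 2 genes that rose and 2 that fell on day 3, of 7 tested, close to the 24.5% and 24.3% of all genes. The list holds Smim6, which is also in a gene list the study drew up from these samples, so its count is not independent evidence. Smim6, a small membrane protein that was listed at 0.16 and 0.23 FPKM on day 0, reached 15.2 and 15.1 FPKM (log2 fold change 5.69, SE 0.43, adjusted p = 0.000269, limma) and was back at 0.17 and 0.46 FPKM on day 10. Hrc, the histidine-rich lumenal calcium buffer, fell from 570 and 506 to 163 and 197 FPKM (-1.58, adjusted p = 0.00188), and Pln, phospholamban, from 1.11 and 0.92 to 0.18 and 0.39 FPKM (-1.57, adjusted p = 0.00794). Calr, the calcium buffer of the general endoplasmic reticulum, had risen already on day 1, to 155 and 99 FPKM from 47.9 and 49.3 FPKM (1.35, adjusted p = 0.0294). On that day Hrc (-1.12) and Stim1 (-0.90) were lower. This made 3 of the 37 tested genes called, beside 3.53% of all genes higher and 2.47% lower. The count was 11 without day 1 replicate 2, 2 without either day 10 library, 0 without any other single library and 1 with the replicate block. In the list of other release and removal genes 2 of 8 tested fell, close to the 24.3% of all genes, and these were the exchanger Slc8a3 (-1.77) and the plasma membrane pump Atp2b3 (-1.67). Of the 5 store-operated entry genes, the reticulum sensor Stim1 fell to 10.9 FPKM in both libraries from 33.0 and 32.1 FPKM (-1.56, adjusted p = 0.000891) and the channel gene Orai2 rose (2.13, adjusted p = 0.011). Of the 37 tested genes of the 4 lists, 14 fell and 3 rose from day 1 to day 3. Of all genes 16.6% fell and 14.5% rose there. From day 3 to day 5, 10 of the 37 rose and 3 fell, beside 7.23% and 5.46% of all genes. Against day 0, 3 were higher and 5 lower on day 5, beside 12.9% and 12.5% of all genes, a count of 8 that was 0 without day 0 replicate 1 or day 5 replicate 2, 2 without day 5 replicate 1, 3 without either day 3 library and 0 with a term for Xist class. The 13 genes called from day 3 to day 5 became 0 without replicate 2 of either day, 3 without replicate 1 of either day and 0 with the Xist term, and the 17 from day 1 to day 3 became 5 without day 3 replicate 2 and 10 without day 3 replicate 1. None was called on day 10 against day 0 by limma, where 0.00597% of all genes were.

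**Figure D4:**
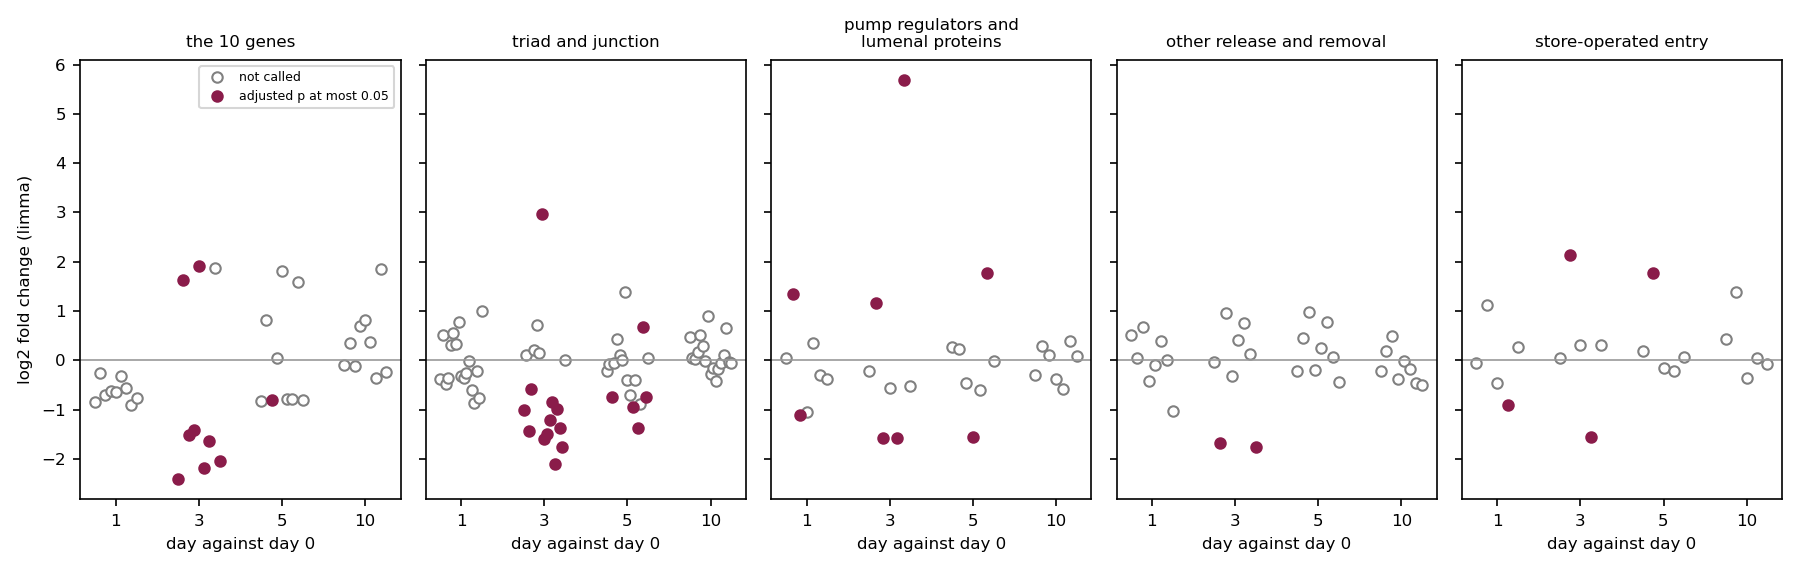
Log2 fold change against day 0 (limma, log2 of FPKM plus 0.1) of the 10 genes and of the 4 pathway lists on days 1, 3, 5 and 10, with 1 point per tested gene and filled points at an adjusted p of at most 0.05. On day 3 most triad and junction genes lie below 0, and the highest point, in the list of pump regulators and lumenal proteins, is Smim6 at 5.69.

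In C2C12 cells the question was whether the same genes came on during differentiation and whether they did so when Mettl3 was knocked down. In control cells 2 of the 8 tested genes rose from day 0 to day 3, Trdn and Ryr3, beside 0.767% of all 13824 genes tested, and none fell, beside 0.376%. Casq1 and Sln were below the filter. Trdn went from 0.346 and 0.199 to 26.3 and 23.8 FPKM, a log2 fold change of 6.10 (SE 0.58, adjusted p = 0.0206, limma), and Ryr3 from 0.262 and 0.131 to 5.54 and 4.03 FPKM (4.06, SE 0.50, adjusted p = 0.0309). In neither did the 2 groups overlap.

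A further 4 muscle genes were above both growth-medium libraries in both day 3 control libraries without passing the test. The share of all genes with that order is not given here, so it is a description only. Casq2 was at 4.52 and 0.303 FPKM on day 0, against 16.9 and 16.5 FPKM on day 3 (log2 fold change 3.62, SE 1.39, adjusted p = 0.247, limma). Atp2a1 was at 2.50 and 0.387 and then at 16.3 and 10.4 FPKM (3.54, adjusted p = 0.207). Ryr1 was at 0.265 and 0.062 and then at 2.53 and 1.12 FPKM (2.88, adjusted p = 0.164), and Cacna1s at 0.255 and 0.063 and then at 1.99 and 1.17 FPKM (2.76, adjusted p = 0.195). In each of these the higher growth-medium value was replicate 1, the library with the higher Myog. When replicate 1 of both growth-medium groups was left out, the changes were 5.38 for Casq2, 4.75 for Atp2a1, 3.47 for Ryr1 and 3.32 for Cacna1s. When replicate 2 was left out, they were 1.87, 2.34, 2.29 and 2.20. Each growth-medium group then held 1 library, so the calls of these fits are not given. Trdn and Ryr3 lost their calls without either day 3 control library and without either Cas9M3 day 3 library. Ryr3 lost its call also without CTRL day 0 replicate 2.

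**Figure D5:**
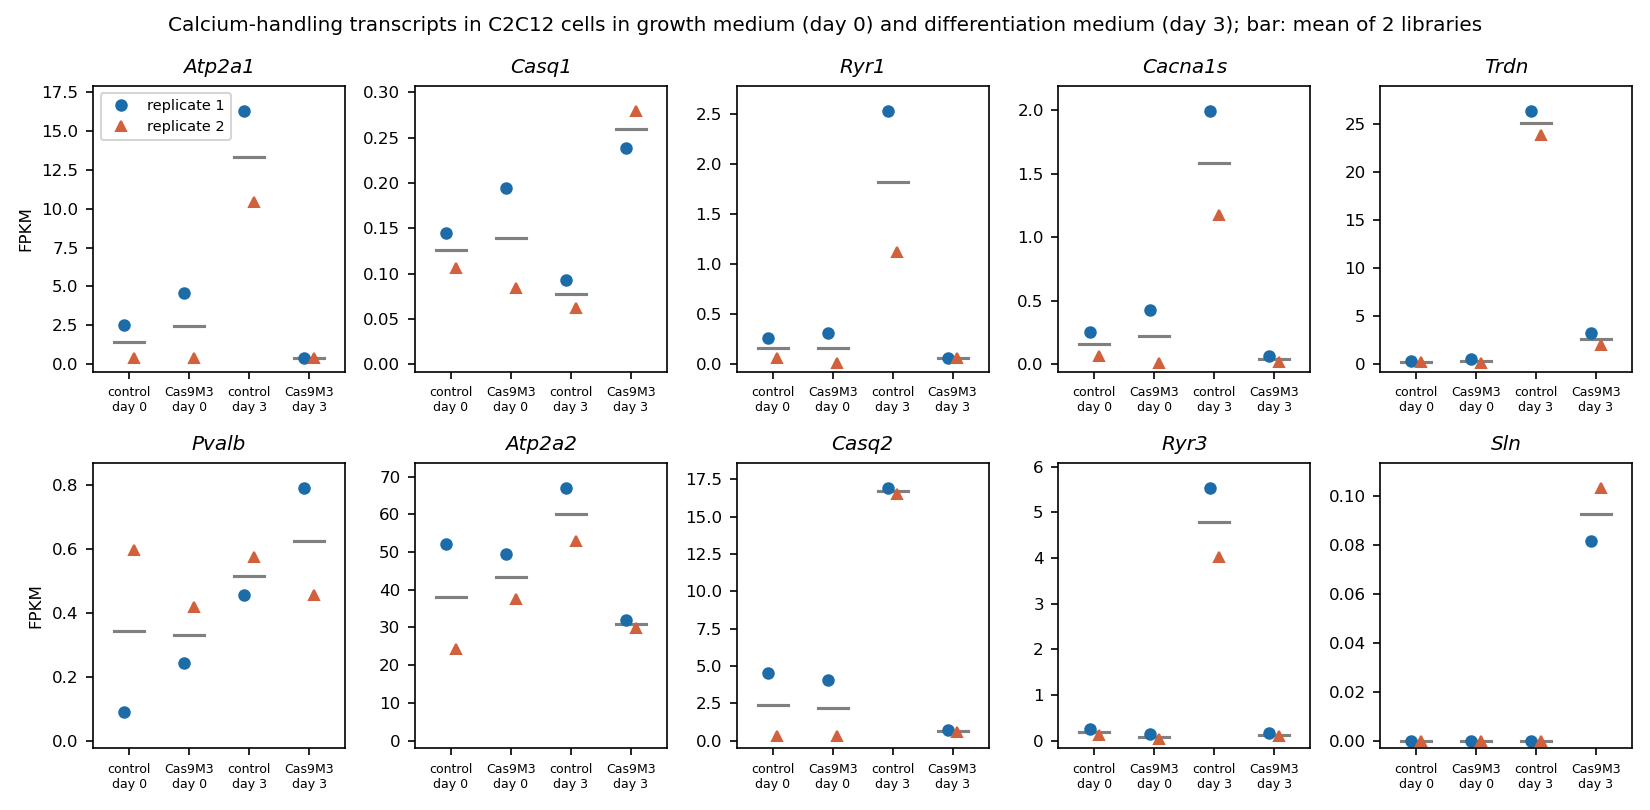
FPKM of each of the 10 genes in CTRL and Cas9M3 cells on day 0 (growth medium) and day 3 (differentiation medium), with both libraries as points and a bar at their mean. The 2 day 3 control libraries are highest for Trdn, Casq2, Atp2a1, Ryr3, Ryr1 and Cacna1s, and the Cas9M3 day 3 libraries of these genes lie near the growth-medium level except for Trdn at 3.30 and 1.97 FPKM.

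On day 3, 1 of these genes differed between the lines by test. Against CTRL, Ryr3 was called lower, 1 of 8 genes beside 0.687% of all genes, and none was higher beside 1.29%. Ryr3 was at 0.170 and 0.10 FPKM, a log2 fold change of -4.38 (SE 0.50, adjusted p = 0.0227, limma). Trdn stood at 3.30 and 1.97 FPKM (-3.25, SE 0.58, adjusted p = 0.0541), Atp2a1 at 0.382 and 0.372 FPKM (-4.78, adjusted p = 0.105), Casq2 at 0.708 and 0.597 FPKM (-4.49, adjusted p = 0.164), Ryr1 at 0.062 FPKM in both libraries (-3.46, adjusted p = 0.0964) and Cacna1s at 0.066 and 0.021 FPKM (-3.53, adjusted p = 0.106). In all 6 genes the 2 lines did not overlap on day 3. With the replicate number as a block, which the cell libraries supported, 5 of the 8 were called lower: Ryr3 (adjusted p = 0.0158), Trdn (0.0227), Atp2a1 (0.0395), Ryr1 (0.0426) and Cacna1s (0.0437). The share of all genes called in the blocked fit is not given here. The block also raised the calls in the 4 pathway lists, from 3 to 7. In the fit without a block, Ryr3 was lost without any 1 of the 4 day 3 libraries (adjusted p = 0.231 to 0.272), and Trdn was called in addition without any 1 of the day 0 libraries. Leaving out replicate 1, or replicate 2, of both growth-medium groups did not alter the log2 fold changes between the lines on day 3.

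Differentiation markers moved alongside. Myog was at 89.1 and 83.3 FPKM in CTRL cells on day 3 and at 3.50 and 2.28 FPKM in Cas9M3 cells, and the 4 new-fibre markers summed to 284 to 327 against 5.93 to 8.36 FPKM, with Myh8 near 0 in both. The 5 fast-fibre markers summed to 639 to 641 against 14.3 to 18.8 FPKM. Their part in the lower levels of the calcium genes was not tested. The housekeeping pump Atp2a2 was the most abundant of the 10 in all 8 cell libraries, at 67.0 and 52.9 FPKM in CTRL and 32.0 and 29.8 FPKM in Cas9M3 cells on day 3 (-0.95, SE 0.37, adjusted p = 0.265). It made up 80.5% and 83.6% of the summed SERCA FPKM in CTRL cells on day 3 and 98.8% in both Cas9M3 libraries.

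Within knockdown cells, day 3 did not differ by test from day 0 in any of the 8 genes, where 0.0289% of all genes were called, and 1 gene had an unadjusted p under 0.05. This was Trdn, from 0.522 and 0.093 to 3.30 and 1.97 FPKM (2.93, SE 0.58, adjusted p = 0.117, limma). On day 0 no gene passed the test between the lines (0% called by limma, with 0 of the 8 and 1244 of all genes at an unadjusted p under 0.05). Mettl3 itself did not pass there (-4.10, adjusted p = 0.188), although its libraries were far apart, so the absence of calls does not show that the lines were alike on day 0. The difference of the knockdown effect between the days was likewise called for 0% of genes. Among the 8 it was largest for Atp2a1, at -5.19 (SE 1.67, adjusted p = 0.462, limma). The lowest adjusted p was that of Ryr3 (-3.71, SE 0.71, adjusted p = 0.269). Without replicate 1 of both growth-medium groups the change of Trdn in knockdown cells was 3.78, and without replicate 2 it was 2.09. Each growth-medium group then held 1 library, so the calls of these fits are not given.

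The adult-type store and the cytosolic buffer were barely detected in culture. Casq1 was at 0.062 to 0.279 FPKM in the 8 cell libraries, from 2 to 13 implied reads, and Pvalb at 0.091 to 0.793 FPKM. Sln was listed at 0 in 6 libraries and had 3 and 2 implied reads in the 2 Cas9M3 day 3 libraries. Casq2 accounted for 99.5% and 99.6% of the summed calsequestrin FPKM in CTRL cells on day 3, where in muscle its highest share was 30.4%. Ryr3 exceeded Ryr1 in both CTRL day 3 libraries, with 68.7% and 78.3% of the summed receptor FPKM. It also did so in both Cas9M3 day 3 libraries (73.2% and 61.7%), at far lower levels of both genes. In growth medium its share was 49.7% and 68.0% in CTRL and 31.2% and 71.4% in Cas9M3 cells. The tables were scaled separately, so shares within a library, not levels, are set side by side here. Across the 4 cell groups the exact permutation p was 0.0571 for the Ryr1 to Ryr3 ratio, 0.152 for Atp2a1 to Atp2a2 and 0.162 for Casq1 to Casq2, with adjusted p-values of 0.0873, 0.162 and 0.162.

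Of the 31 tested genes of the 4 pathway lists, 3 rose from day 0 to day 3 in control cells, beside 0.767% of all genes, and all 3 were from the triad and junction list. The count was 18 without CTRL day 0 replicate 1, 1 without replicate 2, and 0 without any 1 of the 4 day 3 libraries or in a fit of the 2 groups alone, and 8 with the replicate block. Cacng1, the gamma subunit of the voltage sensor, went from 5.16 and 4.06 to 56.7 and 56.5 FPKM (3.6, adjusted p = 0.035, limma). Stac3, the adaptor that couples the voltage sensor to Ryr1, went from 0.43 and 0.29 to 5.21 and 5.01 FPKM (3.52, adjusted p = 0.0471), and Tmem38a from 6.34 and 9.38 to 27.0 and 28.6 FPKM (1.84, adjusted p = 0.0297). On day 3 the same 3 genes were the ones lower in knockdown than in control cells, beside 0.687% of all genes, at 6.20 and 6.43 FPKM for Cacng1 (-3.14, adjusted p = 0.0357), 0.21 and 0.16 FPKM for Stac3 (-4.19, adjusted p = 0.0269) and 6.15 and 5.88 FPKM for Tmem38a (-2.19, adjusted p = 0.0197). These contrasts share the CTRL day 3 libraries. The count between the lines was 5 or 6 without any 1 day 0 library, 0 without any 1 day 3 library, 7 with the replicate block and 12 in a fit of the 2 groups alone. None of the 31 was called between the lines on day 0, with 1 at an unadjusted p under 0.05. The median log2 fold change of the 16 tested triad and junction genes was 1.20 in control cells and -0.92 between the lines on day 3, beside -0.02 and -0.05 for all genes.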

How the data were processed

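RNA-seq of 10 muscle libraries and 8 C2C12 libraries was analysed from 2 tables in which the deposited values are FPKM. The authors used HISAT2 for alignment to GRCm38 (Ensembl) and featureCounts for gene counts, which were scaled with the fpkm function of DESeq2; versions and strand setting are not given in the sources used here. The tables were normalized separately, so groups were compared within a table. Groups and replicate numbers came from the library labels. Overexpression libraries are not analysed here.

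Reads were implied from the value of 1 read on each gene's GENCODE M21 exon length; 97.2% to 98.04% of low values (below 10.5 reads) in the muscle table and 98.79% to 98.98% in the cell table were whole within 0.05 of a read. Genes with at least 0.5 FPKM in 2 libraries were tested with limma 3.58.1 (R 4.3.3; lmFit, eBayes with trend) on log2(FPKM + 0.1), all groups of a table in 1 fit, with Benjamini-Hochberg adjustment over all 16753 or 13824 genes and calls at an adjusted p of at most 0.05. A fold change is on that log2 scale and understates low genes. Isoform ratios were tested by exact permutation of an F statistic among groups, one-sided in F (Python 3.11.15). Its smallest possible p is 0.00106 across 5 days and 0.00952 across 4 cell groups. The fit was tested on simulated data. Same-numbered cell libraries deviated together (6 correlations of 0.278 to 0.68), though their labels state no pairing, so the blocked fit is given where it moves a count; muscle numbers did not (-0.0187 to 0.211). From each pathway list and comparison, at most 3 called genes with the largest change and a mean of at least 1 FPKM were named. The members, lists and tests were chosen with earlier results of these data known. Smim6 is in a pathway list and also in a list the study drew up from these samples. Alternatives were other pseudocounts, filters and scalings, a fit of only the groups compared, a replicate block, an Xist term and omission of each library.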

Additional observations from a re-analysis of the deposited data

Results flagged for a closer look

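Atp2a2, the housekeeping calcium pump, moved in opposite directions in the 2 cell lines between growth medium and day 3: from 52.1 and 24.2 to 67.0 and 52.9 FPKM in CTRL cells and from 49.5 and 37.4 to 32.0 and 29.8 FPKM in Cas9M3 cells, without overlap in either line. The difference between the 2 changes was -1.22 on the log2 scale (SE 0.53, adjusted p = 0.587, limma), which did not pass the test. Casq1 showed the reverse at levels of 2 to 13 implied reads, from 0.145 and 0.106 to 0.093 and 0.062 FPKM in CTRL cells and from 0.195 and 0.084 to 0.239 and 0.279 FPKM in Cas9M3 cells. The difference was 0.97 on the log2 scale, was below the filter and in the fit with no filter had an adjusted p of 0.792. With 2 libraries per group no test of single libraries that stand apart within a group was possible.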

How the results depend on the processing

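With 2 libraries per group, most counts of called members rested on few libraries. Leaving out one library at a time gave 5 to 9 calls on day 3 against day 0 (8 as reported), 0 to 9 on day 3 against day 1 (8), 0 to 2 on day 5 against day 0 (1), 0 to 4 on day 5 against day 3 (3), 4 to 6 on day 10 against day 3 (6), 0 to 6 in control cells (2), 0 to 2 between the lines on day 3 (1) and 0 in the others. The 5 were without day 0 replicate 1 or day 3 replicate 2. With a log2 fold change of at least 2 also required, the counts were 3, 1, 0, 0 and 3 in these 5 muscle comparisons. Without the filter on low values there were 4 calls on day 3 against day 1, 0 on day 5 against day 0, 1 in control cells and 2 between the lines. The 2 were Ryr3, lower, and Sln, higher in Cas9M3 cells on few implied reads (0.94, adjusted p = 0.0318, limma). Quantile normalization gave 5 on day 3 against day 0, 3 against day 1, 2 on day 5 against day 0 (both higher, Casq2 among them, and not Cacna1s), 1 on day 5 against day 3 and 3 between the lines. Casq1 then changed sign on day 3 against day 0 (0.12) and against day 1 (0.18), as did Atp2a1 against day 1 (0.0026). Fits of only the compared groups gave 5, 2, 0 in control cells and 7 between the lines. Pseudocounts of 0.01 and 1 gave 1 call in control cells and 3 between the lines. An Xist term, planned, left 0 on day 3 against day 1 and on day 5 against days 0 and 3. Only day 3 held both Xist classes, so that term rests on the difference between its 2 libraries. Fits within one Xist class were chosen after seeing the data. They held a single day 3 library, so their calls are not counted here. Growth-medium groups without replicate 1, or without replicate 2, were also chosen after seeing the data. Each then held 1 library, so the calls of these fits are not counted here. Apart from the stated construction of each alternative, the cause was not tested.

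The replicate block gave 5 member calls between the lines and changed no other count of members in cells, and it gave 8 pathway genes in control cells and 7 between the lines (3 and 3 as reported). In muscle, where the numbers did not pair the libraries, it gave 7 members on day 3 against day 0 (Atp2a2 adjusted p = 0.0539) and 1 on day 5 against day 0, with Casq2 (0.0381) in place of Cacna1s (0.0505), left the other counts of members as they were, and gave 1 pathway gene on day 1 (3 as reported).

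The isoform ratio p-values were 0.00529 to 0.0243 (Ryr), 0.0593 to 0.244 (Atp2a) and 0.0339 to 0.193 (Casq) in muscle with one library left out, and 0.0286 to 0.371, 0.0381 to 0.295 and 0.0476 to 0.362 in cells. After quantile normalization the Casq1 to Casq2 ratio in muscle had p = 0.0857 (exact permutation). Among called single members, 205 of the fits without 1 library kept the call and 79 lost it, and 216 and 99 did so under other alternatives. Depth limits Ryr3 in muscle and Casq1, Sln and Pvalb in cells, where values rest on few reads.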
